A study of Sus scrofa with 6 samples.

Results

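Solute carriers are the membrane proteins that move amino acids, sugars, metals, ions, nucleosides, vitamins and organic acids into and out of cells and their organelles. Their genes are named by family: SLC, a family number, the letter A and a member number. Members of a family share sequence, and in many families they share a class of substrate as well. In bone marrow stromal cells they supply amino acids for collagen synthesis, phosphate and sulfate for the matrix, and metabolites for the mitochondria. Phagocytes of the marrow use other carriers, which work in the membranes of phagosomes and lysosomes.

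The members were the genes with a symbol of that form, except SLC2A1, SLC2A3, SLC16A1 and SLC16A3, which the rule of choice leaves out. Each was read from a probe set with a single symbol in the platform annotation, and a gene with several was read from the one with the highest average level. This gave 203 genes of 43 families, from 221 probe sets, among 10873 named genes on the array. Pig genes of this form in RefSeq's gene table numbered 321, and all 203 were among them. Carriers without such a probe set, among them SLC3A2, SLC7A5, SLC7A11 and SLC40A1, are not analysed here.

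RNA came from primary mesenchymal stem cell cultures at passage 0, taken from female American Yorkshire pigs aged 4 months. Marrow was drawn from the mandibular symphysis, where both sides of the lower jaw meet, for 3 cultures and from the tibia for the other 3, with 3 pigs as the source of both. Whole marrow was plated on plastic, so other adherent cells were not removed by a sort, and the cultures were grown in medium with 20% serum to 80% confluence. The labels number the samples within each site and do not tie a number to a pig, so the p-values take the 6 arrays as independent. The question was how jaw and long bone stromal cells differ in expression.

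Levels are log2 values after RMA, which corrects background and makes the arrays' distributions equal, so a step of 1 is a doubling and levels are relative. Array medians lay between 5.63 and 5.71. Of 12 listed stromal markers 10 were measured, with THY1 between 10.50 and 10.70 and COL1A1 between 13.24 and 13.49 on every array. Of the 10, 4 had a range of at least 1. They were ENG, NT5E from 7.05 to 9.13, CD44 from 6.44 to 8.19 and VCAM1, which measured 4.28, 5.57 and 3.68 on the mandibular and 9.52, 7.55 and 4.10 on the tibial arrays, a difference of -2.55. CXCL12 lay between 4.14 and 5.06. Markers of macrophages were also present and uneven. Of 20 listed, 15 were measured and 14 were lower in mandibular cultures. CD86 went the other way, at 9.85, 7.80 and 9.87 on the mandibular and 8.44, 7.44 and 9.64 on the tibial arrays. The mean level of the 15 ran from 5.14 to 6.35 on mandibular arrays and from 5.69 to 8.67 on tibial arrays. The leukocyte marker PTPRC was lowest at 3.42, on mandibular 1, and RMA values have no true zero.

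The arrays labelled mandibular 2 and tibial 3 went against their labels in positional genes. ALX1, a transcription factor of the craniofacial mesenchyme, measured 8.08, 3.86 and 7.44 on mandibular 1, 2 and 3 and 3.90, 3.54 and 7.97 on tibial 1, 2 and 3. HOXA7, a homeobox gene of the trunk, measured 5.26, 8.40 and 5.23 on the mandibular and 8.01, 7.92 and 5.89 on the tibial arrays. Results are given with all 6 arrays under their labels, and for the widest members and some others that moved also without these 2.

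No solute carrier passed the test between the sites. Of the 203 members 0 were called by limma after Benjamini-Hochberg adjustment over all 27558 probe sets, where 0% of all probe sets were called, and the adjusted p of each member was 0.9995. An unadjusted p under 0.05 was reached by 7 members, or 3.45%, against 3.03% of all probe sets. Of the 7, 2 were higher in mandibular cultures (1.35% of all probe sets) and 5 in tibial cultures (1.69%). For 20 members, or 9.85%, the levels of the sites did not overlap, against 6.92% of all probe sets. Of these, 8 were higher in mandibular cultures, where the share over all probe sets was 3.35%, and 12 in tibial cultures, where it was 3.57%. Without the array labelled tibial 1 limma called 0 members and 0.00363% of all probe sets, and without tibial 3 it called 0 members and 0.00726%.

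Most members differed little between the sites. The median difference, mandibular minus tibial, was -0.039 over the members and 0.004 over all probe sets. By sign alone 75 members were higher in mandibular cultures and 128 lower, so that 36.9% were higher against 51.0% of all probe sets. With each array centred on its median these shares were 43.8% and 57.3%. Without the array labelled tibial 1 the share of members was 43.3%. That array held the highest level of 66 members, or 32.5%, against 22.7% of all probe sets, and it also had the highest array median. The median range over the 6 arrays was 0.53 for the members and 0.53 for all probe sets, and 27 members, or 13.3%, had a range of at least 1 against 16.1%. For 37 members the mean level was below 3.90, the lower quartile of all probe sets. Without a detection call such low levels could not be told from background. The quartile is no detection limit, and levels just above it share this doubt.

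Carriers known from macrophages had their highest levels on the arrays labelled tibial 1 and tibial 2. Of 9 listed, 5 were measured, and all 5 were lower in mandibular cultures, with a median of -0.634, while 0 were called. The list was chosen with earlier results of these data known, and of all 203 members 128 were lower. SLC11A1, also called NRAMP1, pumps iron and manganese out of the phagosomes of macrophages. It measured 4.50, 5.61 and 4.52 on mandibular 1, 2 and 3 and 9.37, 7.35 and 4.91 on tibial 1, 2 and 3. Tibial 1 and 2 stood above the rest, while tibial 3 lay below mandibular 2, so the sites overlapped. Its range of 4.87 was the widest of the 203 members. The difference was -2.33 (SE 1.04), or 5.03-fold, and it was -1.25 without tibial 1, -3.48 without tibial 3 and -3.85 (SE 0.62) without both mandibular 2 and tibial 3.

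SLC37A2 encodes a sugar phosphate exchanger of the endoplasmic reticulum that is abundant in macrophages and osteoclasts. It measured 6.15, 6.30 and 5.95 on the mandibular and 7.89, 6.91 and 6.34 on the tibial arrays. The sites did not overlap, although tibial 3 lay only just above mandibular 2. The difference was -0.91 (SE 0.37), and it was -0.49 without tibial 1 and -1.35 without mandibular 2 and tibial 3.

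SLC29A3, a nucleoside transporter of lysosomes, also did not overlap. Its levels were 7.0, 6.96 and 6.93 on the mandibular arrays, which lay close together, and 7.50, 7.62 and 7.12 on the tibial arrays. The difference was -0.45 (SE 0.15). SLC7A7, which encodes a subunit that exports cationic amino acids such as arginine, measured 7.10, 6.46 and 6.76 against 8.08, 7.25 and 6.89. Here tibial 3 lay below mandibular 1. The difference of -0.63 (SE 0.32) was -0.30 without tibial 1 and -0.74 without mandibular 2 and tibial 3. The lysosomal peptide and histidine transporter gene SLC15A3 measured 6.99, 6.97 and 6.89 against 8.33, 7.26 and 6.86. Only tibial 1 and tibial 2 stood apart. The difference of -0.53 (SE 0.36) was -0.11 without tibial 1 and -0.85 without mandibular 2 and tibial 3. A second probe set of SLC15A3 differed by -0.43.

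The same arrays had the highest means of the macrophage marker list, at 8.67 on tibial 1 and 8.09 on tibial 2. Mandibular 2 followed with 6.35, and the lowest 3 were tibial 3 with 5.69, mandibular 3 with 5.21 and mandibular 1 with 5.14. Osteoclast markers, of which 9 of 9 were measured, averaged 7.68 and 7.19 on tibial 1 and 2, with all other arrays from 5.40 to 6.14. Not every marker on that list followed its mean. CTSK measured 11.42, 11.49 and 10.93 on the mandibular and 11.92, 10.82 and 11.02 on the tibial arrays. CALCR and TNFRSF11A differed by only -0.01 and -0.06. The part of such cells in the levels of these carriers was not tested. In RNA from whole cultures, fewer cells of a type and less RNA per cell cannot be told apart.

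**Figure D1:**
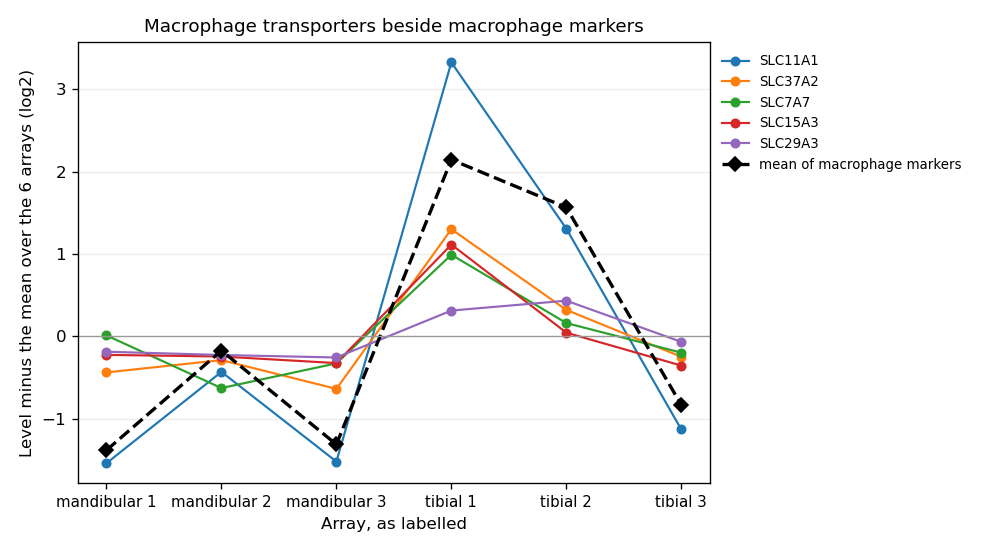
Level of 5 macrophage carriers on each array, as a difference from the gene's own mean over the 6 arrays (log2), with the mean of the 15 measured macrophage markers treated in the same way (dashed black line with diamonds); the horizontal axis gives the arrays as labelled. SLC11A1 and the marker mean are highest on tibial 1 and tibial 2, and tibial 3 lies near the mandibular arrays.

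The widest ranges after SLC11A1 belonged to carriers of monocarboxylates, amino acids and organic ions, and in several the arrays labelled mandibular 2 and tibial 3 lay with the other site. The 20 members with the widest range had ranges from 1.26 to 4.87. Of these 20, 8 were highest on tibial 1 and 6 were lowest there. SLC16A7 encodes MCT2, a transporter with high affinity for pyruvate and lactate. It measured 4.34, 6.35 and 4.37 on mandibular 1, 2 and 3 and 7.86, 6.75 and 4.16 on tibial 1, 2 and 3. The levels fell into a low set of mandibular 1, mandibular 3 and tibial 3 and a high set of the other 3 arrays, an arrangement that crosses the labels. With all arrays the difference was -1.24 (SE 1.00), and without tibial 1 it was -0.44. Without mandibular 2 and tibial 3 it was -2.95 (SE 0.37, adjusted p = 0.0443 in limma, 2 arrays against 2). Those 2 arrays were left out because of their values in these same data, so this p is descriptive and no independent test.

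SLC6A17 was arranged the other way. The gene encodes a transporter of neutral amino acids known from synaptic vesicles. It measured 7.63, 6.77 and 7.88 on the mandibular and 6.17, 6.18 and 7.44 on the tibial arrays, so that mandibular 2 and tibial 3 again lay towards the other site. The difference was 0.83 (SE 0.43), and without mandibular 2 and tibial 3 it was 1.58 (SE 0.18, adjusted p = 0.033 in limma). SLC16A7 and SLC6A17 were the only 2 members called in that fit, 0.985% of the 203, against 0.708% of all probe sets. Its p-values all share the limit given for SLC16A7.

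SLC6A15 encodes a sodium-coupled carrier of branched-chain amino acids and proline. Its levels were 5.11, 3.83 and 6.02 on the mandibular and 2.51, 3.46 and 5.35 on the tibial arrays. Mandibular 1, mandibular 3 and tibial 3 were high, and the other 3 levels lay below 3.90, the lower quartile of the probe sets. The difference was 1.21 (SE 0.82), 0.58 without tibial 1, 2.00 without tibial 3 and 2.58 (SE 0.43) without mandibular 2 and tibial 3. The tibial mean of 3.77 lay below that quartile. The size of the difference thus rests on a low level that, without a detection call, could not be told from background. Cell cycle genes, of which 6 of 12 were measured, had list means of 7.87, 7.91 and 8.83 on the mandibular and 6.21, 6.88 and 8.35 on the tibial arrays. They were thus lowest on tibial 1 and 2, as SLC6A15 and SLC6A17 were, but not on mandibular 2, and their part in these levels was not tested.

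SLC22A23, an organic ion carrier gene of unknown substrate, measured 6.32, 9.14 and 5.92 on the mandibular and 8.13, 7.45 and 5.71 on the tibial arrays. Mandibular 2 was the highest of all 6 and tibial 3 the lowest, and under the labels the difference was 0.03 (SE 0.97). It turned to -0.97 without mandibular 2, to -0.66 without tibial 3 and to -1.67 (SE 0.29) without both. The glutamate transporter gene SLC1A3 measured 5.94, 6.77 and 5.81 against 6.90, 8.0 and 5.02. Tibial 3 was again lowest, and tibial 2 was highest. Its difference of -0.47 (SE 0.72) turned to 0.21 without tibial 2 and was -1.58 (SE 0.37) without mandibular 2 and tibial 3. SLC22A3, the organic cation transporter OCT3, measured 4.22, 4.58 and 4.15 against 5.11, 4.90 and 3.78. Mandibular 2, tibial 1 and tibial 2 were the 3 highest, as in SLC1A3, and the difference was -0.28 (SE 0.35). It was -0.02 without tibial 1, -0.69 without tibial 3 and -0.82 (SE 0.18) without both mandibular 2 and tibial 3.

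In SLC25A21 and SLC16A10 mandibular 1, mandibular 3 and tibial 3 were again the 3 highest. SLC25A21, a mitochondrial carrier of oxodicarboxylates, measured 7.13, 6.07 and 6.81 against 6.32, 5.61 and 6.55. The difference of 0.51 (SE 0.34) was 0.23 without tibial 2, 0.28 without mandibular 1 and 1.01 (SE 0.28) without mandibular 2 and tibial 3. SLC16A10, an aromatic amino acid transporter gene, measured 5.96, 4.90 and 5.58 against 4.68, 5.15 and 6.10. Tibial 3 was highest, and the difference of 0.17 turned to -0.14 without tibial 1 and was 0.85 (SE 0.24) without mandibular 2 and tibial 3.

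Some wide ranges were arranged otherwise. SLC7A8, a light chain that exchanges large neutral amino acids, measured 8.06, 6.05 and 7.13 against 8.12, 7.77 and 6.59, with mandibular 2 lowest. The difference was -0.41 (SE 0.58) and turned to 0.10 without mandibular 2, and it was -0.35 without mandibular 2 and tibial 3. The arginine transporter gene SLC7A2 measured 4.12, 5.93 and 5.81 against 4.44, 5.68 and 5.43. One array of each site, mandibular 1 and tibial 1, was low, and the difference of 0.10 (SE 0.55) was -0.27 without tibial 1 and 0.69 without mandibular 1. The neuronal glutamate transporter gene SLC1A1 was high on mandibular 2 alone, at 5.10, while every other array measured 3.42 to 4.03, and the difference of 0.42 was -0.04 without mandibular 2. Of those other arrays, all but tibial 3 lay below the lower quartile of the probe sets. Without mandibular 2 and tibial 3 SLC1A1 differed by 0.10. SLC16A12, a carrier of creatine, was high on tibial 1 and tibial 2, at 4.86 and 4.20, while all others measured 3.10 to 3.47, with a difference of -0.81 (SE 0.41). All 3 mandibular levels and the mean of 3.66 lay below the lower quartile of the probe sets. The difference was -0.41 without tibial 1, -1.28 without tibial 3 and -1.21 without both mandibular 2 and tibial 3.

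The remaining members of the 20 widest had differences between -0.38 and 0.44. They were the thiamine transporter gene SLC19A2 at -0.38, the peptide transporter gene SLC15A2 at 0.44, the glutamate transporter gene SLC1A6 at -0.17 and SLC10A4, a relative of bile acid carriers, at 0.04. Their ranges lay between 1.26 and 1.53, and in each the sites overlapped. Without mandibular 2 and tibial 3 the differences were 0.06 for SLC19A2, 0.80 for SLC15A2, 0.49 for SLC1A6 and 0.40 for SLC10A4, so that SLC19A2 and SLC1A6 turned. The mean level of SLC15A2, 3.54, lay below the lower quartile.

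**Figure D2:**
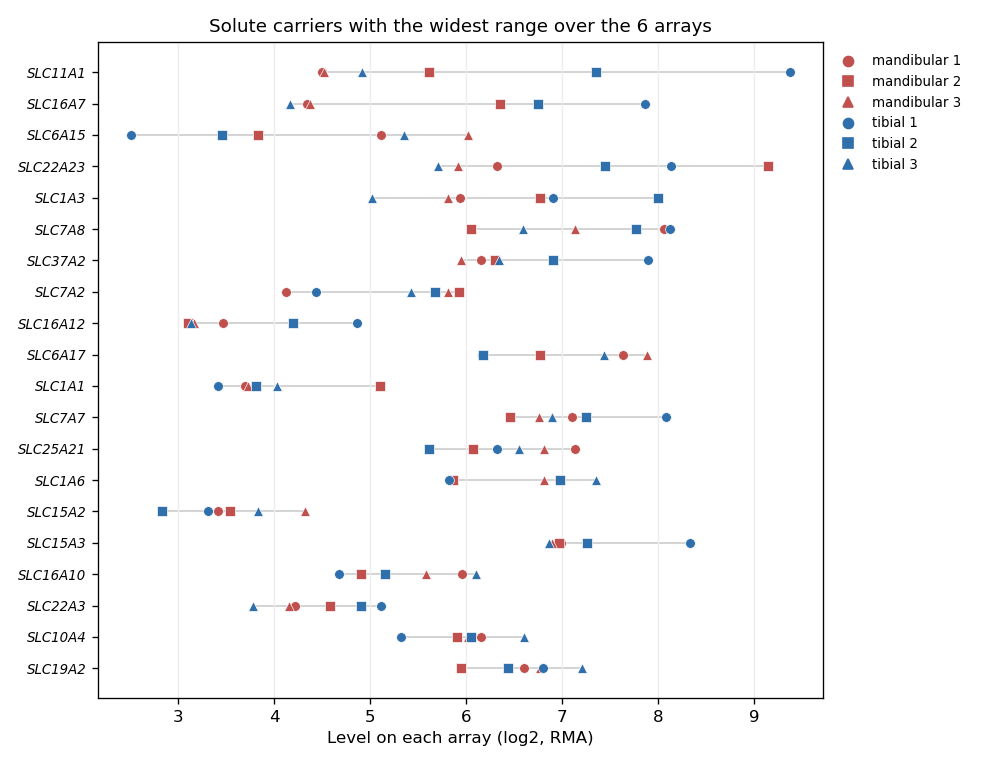
Level on each array (log2, RMA) of the 20 solute carriers with the widest range; each row is a gene, each point an array, colour gives the labelled site and shape the sample number, and the grey line spans the 6 values. In SLC16A7, SLC6A15, SLC22A23 and SLC6A17 the points of mandibular 2 and tibial 3 lie towards or among those of the other site.

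Members whose sites did not overlap had small differences apart from SLC37A2. SLC7A4, a family member whose substrate is not established, had the smallest p of all members. Its levels were 4.09, 4.07 and 3.90 on the mandibular and 4.42, 4.48 and 4.41 on the tibial arrays. Each site was tight, and the difference was -0.42 (SE 0.11, unadjusted p = 0.00763 in limma). SLC6A7, the proline transporter PROT, measured 5.43, 5.31 and 5.35 against 5.18, 4.81 and 4.66. All 3 mandibular levels lay above the highest tibial level, and the difference was 0.48 (SE 0.16, unadjusted p = 0.0195 in limma). Proline is a main building block of collagen.

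SLC46A3, a carrier of the lysosomal membrane, differed by -0.47 (SE 0.17), but its levels of 2.29 to 3.13 were all below the lower quartile of the probe sets. The same limit holds for SLC13A1, a sulfate transporter known from kidney, at -0.21, and for SLC38A11 at -0.22. SLC30A8, the zinc transporter ZnT8 of insulin granules, measured 4.72, 4.39 and 4.43 against 4.07, 4.31 and 4.17, a difference of 0.33 (SE 0.14), and its other probe sets, at 0.21 and 0.22, overlapped between the sites. SLC36A2, a carrier of small amino acids and protons, differed by -0.39 (SE 0.19), or -0.19 without mandibular 2, and its second probe set, at -0.31, overlapped.

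Of the others with higher tibial levels, the urea transporter gene SLC14A1 differed by -0.30, the sodium-coupled sugar transporter gene SLC5A9 by -0.29 and the mitochondrial carrier gene SLC25A34 by -0.20. Without tibial 1 the first 2 differed by -0.15 and -0.16. Higher mandibular levels were measured for the aspartate and glutamate carrier citrin, SLC25A13, at 8.11, 8.23 and 8.18 against 7.76, 8.02 and 7.98, a difference of 0.25 (SE 0.12). The proton-assisted amino acid transporter gene SLC36A4 differed by 0.25 (SE 0.13) and SLC37A1, an endoplasmic reticulum relative of SLC37A2, by 0.24 (SE 0.12). For SLC3A1, the insulin-responsive glucose transporter gene SLC2A4 and the sugar transporter gene SLC5A10 the difference was 0.09 each. With each array centred on its median, 18 members had no overlap, or 8.87%, against 7.19% of all probe sets.

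**Figure D3:**
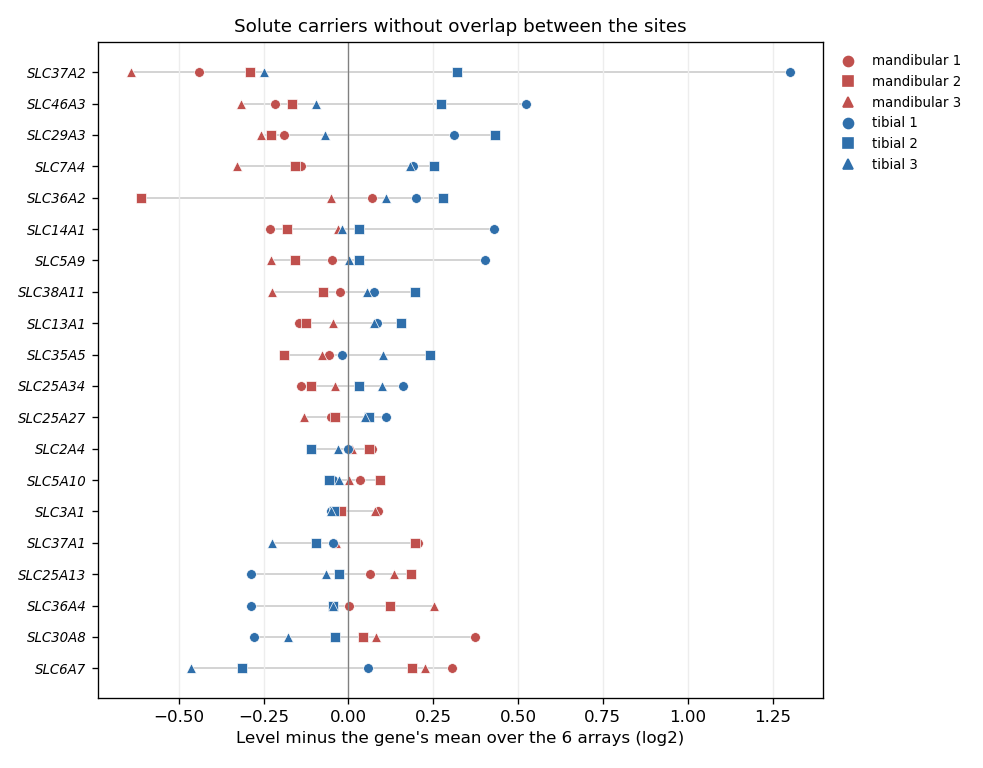
Level on each array minus the gene's mean over the 6 arrays (log2) for the 20 members whose 3 mandibular (red) and 3 tibial (blue) values do not overlap; shapes give the sample number and the line spans the values. SLC37A2 spreads most, on tibial 1, and the rows from SLC2A4 to SLC3A1 differ by 0.09.

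By transport class, the counts leaned to higher tibial levels in several classes, metals and carboxylates among them, with small sizes. Over all 203 members 128 were lower in mandibular cultures, so the lean was not particular to these classes. No class held a called member. Of 20 metal carriers 17 were lower in mandibular cultures, with a median of -0.095. Zinc and manganese importers of family SLC39 made up 11 of them, 10 of which were lower, but the differences lay only between -0.23 and 0.04. SLC39A8, which also carries manganese, measured 4.05, 3.66 and 3.72 against 4.26, 4.28 and 3.58, a difference of -0.23. Its levels on mandibular 2, mandibular 3 and tibial 3 lay below the lower quartile of the probe sets. With each array centred on its median 4 of the 20 metal carriers were higher, while there were 8 without mandibular 1, with a median of -0.023, and 7 without tibial 2. Of 14 carboxylate and sulfate carriers 11 were lower, with a median of -0.063, and 5 were higher without mandibular 2, mandibular 3 or tibial 2, each left out alone. SLC16A14, a relative of the monocarboxylate carriers, measured 4.38, 4.67 and 4.45 against 5.23, 5.17 and 4.61, where tibial 3 lay below mandibular 2. Its difference was -0.50 (SE 0.19), or -0.78 without mandibular 2 and tibial 3.

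The amino acid class was the largest, with 35 members, 12 higher and 23 lower, and a median of -0.072. Classes follow family number, so not every member need carry amino acids, and SLC16A10 was counted with the carboxylates. The amino acid class spanned -0.63 for SLC7A7 to 1.21 for SLC6A15. Of 10 listed carriers of the amino acid stress response 4 were measured. The glutamine and alanine carrier gene SLC38A2 measured 10.83 to 11.19 on the mandibular and 10.51 to 10.91 on the tibial arrays, a difference of 0.24 (SE 0.16). The neutral amino acid exchanger gene SLC1A5 lay between 10.42 and 10.86 on all arrays and differed by 0.02 (SE 0.16). SLC1A4 and SLC7A1, the serine and the arginine carriers, differed by -0.07 and 0.10. All 4 had their lowest level on tibial 1.

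Mitochondrial carriers, which pass metabolites and phosphate across the inner membrane, were even between the sites. Of 33 members 15 were higher and 18 lower, which became 18 higher with each array centred on its median, and the median was -0.009. Only 2 had a range of at least 1. The phosphate carrier gene SLC25A3 lay between 11.11 and 11.36 on all arrays and differed by -0.06 (SE 0.12), a gene chosen after its values were seen. SLC25A43 measured 7.99, 8.25 and 7.96 against 8.61, 8.64 and 7.96, with tibial 1 and 2 apart, and differed by -0.34 (SE 0.21), or -0.65 without mandibular 2 and tibial 3. The 24 carriers of ions, pH and cell volume were split 13 higher to 11 lower, with differences between -0.27 and 0.34. In single omissions 7 to 16 were higher, the lowest count without tibial 2. The bicarbonate cotransporter gene SLC4A4 differed by 0.34 (SE 0.20), or 0.64 without mandibular 2 and tibial 3, and the endosomal proton exchanger gene SLC9A9 by -0.27 (SE 0.21).

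The 23 carriers of sugars and sodium-coupled solutes were split 11 to 12, with a median of -0.004. All 5 members of family SLC2 were higher in mandibular cultures, by at most 0.09. Nucleoside and vitamin carriers were split 7 to 6. Organic ion, drug and bile acid carriers were lower in 10 of 13, with a median of -0.083 and none beyond -0.29. SLC22A17, a receptor for the iron-binding protein lipocalin 2, measured 9.11, 8.65 and 8.51 against 9.04, 9.18 and 8.93, a difference of -0.29 (SE 0.18). In the class of lipids, choline and haem, whose members here were all fatty acid or choline carriers, 6 of 7 were lower. After centring it was 4 of 7, and under the labels none lay beyond -0.19. Without mandibular 2 this class held 5 of 7 higher and a median of 0.013. It included the fatty acid transporter gene SLC27A1 at 5.74, 6.13 and 5.56 against 6.30, 6.38 and 5.32, a difference of -0.19 that was -0.69 without mandibular 2 and tibial 3. Vesicular and type I phosphate carriers were lower in 6 of 7, with the monoamine transporter gene SLC18A1 at -0.41 (SE 0.17).

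**Figure D4:**
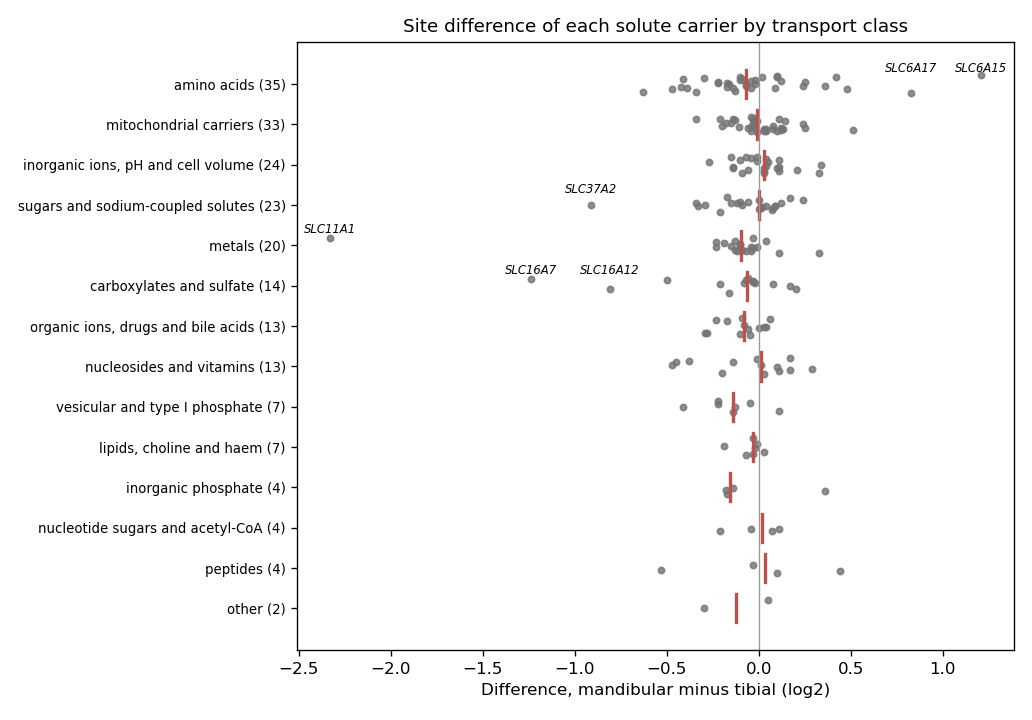
Difference of each of the 203 members, mandibular minus tibial (log2), by transport class with the number of members in brackets; grey points are genes, scattered vertically for visibility, and red bars are class medians. Class medians lie between -0.158 and 0.037, and the named outlying points are SLC11A1, SLC16A7, SLC37A2, SLC16A12, SLC6A17 and SLC6A15.

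Carriers tied to bone and cartilage differed between the sites by -0.45 to 0.36. Of 18 listed genes 9 were members and were measured, and 0 were called. SLC20A1, or PiT1, takes up the inorganic phosphate used in mineralization. It measured 9.32, 9.70 and 9.94 on the mandibular and 9.15, 9.13 and 9.60 on the tibial arrays, with the sites overlapping and a difference of 0.36 (SE 0.21). SLC26A2, the sulfate transporter whose loss causes diastrophic dysplasia, lay between 8.24 and 8.64 on all arrays and differed by -0.07 (SE 0.14). The zinc transporter gene SLC39A13, which is mutated in a form of Ehlers-Danlos syndrome, lay between 8.59 and 8.99 and differed by -0.10 (SE 0.15). SLC39A14, an importer of zinc, iron and manganese, measured 9.46, 9.92 and 9.67 against 9.80 and 9.83 on tibial 1 and 3, with the highest level on tibial 2, a difference of -0.19 (SE 0.15). SLC8A3, a sodium and calcium exchanger, and SLC4A7, a bicarbonate cotransporter, each differed by 0.11. SLC34A2, a phosphate cotransporter known from epithelia, measured 3.91 to 4.50 and differed by -0.18. SLC29A3 and SLC39A8, described above, complete the list.

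Carriers known from red cell precursors were measured in 4 of 7 listed cases, and 3 were higher in mandibular cultures, by at most 0.08. The mitochondrial iron importer gene SLC25A37 measured 7.41, 7.08 and 7.73 against 6.68, 7.54 and 7.74. The nucleoside transporter gene SLC29A1 measured 9.70, 8.74 and 9.71 against 9.29, 9.26 and 9.55, lowest on mandibular 2. Without mandibular 2 and tibial 3 these 2 genes differed by 0.46 and 0.43. Erythroid markers were measured in 4 of 8 cases. HBB, a haemoglobin chain, lay between 2.10 and 2.75 and ALAS2 between 2.40 and 2.78, both below the lower quartile of the probe sets. EPOR, at 4.39 to 5.26, and KLF1, with a mean level of 4.30, lay above it.

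Transporters outside the SLC naming were also compared. Of 55 measured, from the SLCO, ABC, MFSD, sodium pump and uncoupling protein genes and a few relatives, 29 were higher and 26 lower in mandibular cultures, with a median of 0.02 and 0 called. ABCC3, an efflux pump of organic anions, was the only one of the 55 without overlap, where the share over all probe sets was 6.92%. It measured 7.59, 7.76 and 7.60 against 7.41, 7.25 and 6.80, a difference of 0.50 (SE 0.18). UCP2, a mitochondrial carrier that belongs to family SLC25 by structure, measured 4.66, 5.24 and 5.24 against 7.16, 7.22 and 4.68. As in SLC11A1, tibial 1 and tibial 2 stood above the other 4 arrays, and the difference was -1.30 (SE 0.67). Both genes were chosen after their values were seen.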

How the data were processed

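The deposited values are log2 levels of 27558 probe sets on 6 arrays. The authors made them by RMA, and their notes on processing, per the labels, also name Transcriptome Analysis Console 3.0 and Affymetrix Expression Console. No build, setting or detection call was given in the sources used here, and the number of arrays limits precision. Symbols came from GEO's platform annotation, which gives 1 symbol for 13157 probe sets; 7 probe sets that carry a carrier symbol more than once or with another were left out. Of the members, 16 genes had several probe sets, which differed in sign for 4 (SLC25A47, SLC27A4, SLC8A2 and SLC9A4) and held identical values for 3.

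Sites were compared in R 4.3.3 by limma 3.58.1 (lmFit, then eBayes, two-sided, unpaired, Benjamini-Hochberg over all probe sets, threshold 0.05). The procedure was also run on simulated data with independent noise. Those data had no shared pigs and no arrays that cross their labels, so the run cannot speak to either. Differences are mandibular minus tibial with limma's SE. Members, classes and lists were chosen with earlier results of these data known. Classes follow the SLC family number. Named were up to 10 non-overlapping members per direction, by smallest p, the 20 widest ranges, the skeletal, macrophage and amino acid response lists, and up to 2 more per class. Alternatives were the replicate block, trended, robust and unmoderated variances, array weights, median centring, filters on low levels, averaged probe sets and omission of arrays.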

Additional observations from a re-analysis of the deposited data

How the results depend on the processing

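The count of 0 called members held under every alternative except omission of the arrays labelled mandibular 2 and tibial 3 together, which gave 2 called members, 195 called probe sets and 81 members without overlap, the last over 2 arrays against 2 (39.9% of members, 37.3% of all probe sets). Those arrays were chosen from values of these same data, so the calls without them are descriptive only. In single omissions 0 members and between 0 and 2 probe sets were called (1 without tibial 1, 2 without tibial 3). Members without overlap numbered 33 to 53 in single omissions, where fewer values have to be kept apart (16.3% to 26.1% of members, 12.7% to 21.7% of all probe sets), and 9 of 104 members above the median level of all probe sets (8.65%, against 5.57%). At an unadjusted p under 0.05 there were 24 members without tibial 3 (11.8%, against 7.51% of all probe sets), 3 without tibial 1 (1.48%, 3.55%), 2 without mandibular 3 (0.985%, 1.95%) and 10 with unmoderated variances (4.93%, 3.08%), against 7. The median difference over members ranged from -0.065 to -0.014, and the members higher in mandibular cultures from 74 to 89 of 203. Whether same-numbered arrays share a pig could not be settled from the values. Deviations of same-numbered arrays correlated at -0.033, 0.212 and 0.473, the last being the highest of all pairs. Mandibular 2 correlated best with tibial 1, and deviations from a mean of 3 arrays are not independent of one another. With the replicate block 0 members and 0 probe sets were called. In that fit 16 members (7.88%, against 5.48% of all probe sets) had an unadjusted p under 0.05.

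Of the 37 carriers named for sites without overlap or for a wide range, 28 kept the sign of the difference under all alternatives. This count is no measure of stability for carriers without overlap, whose sign cannot turn when arrays are left out or weighted. The replicate block and the variance settings leave every difference as it was. With array weights SLC10A4 measured -0.07 and SLC22A23 -0.06. Without mandibular 2 and tibial 3 the sign turned for SLC19A2 (0.06), SLC1A6 (0.49), SLC22A23 (-1.67) and SLC7A2 (-0.09), and SLC16A7 (-2.95) and SLC6A17 (1.58) were called. Single omissions turned SLC10A4 (-0.29 to 0.34), SLC16A10 (-0.14 to 0.56), SLC1A1 (-0.04 to 0.66), SLC1A3 (-1.28 to 0.21), SLC1A6 (-0.62 to 0.17), SLC22A23 (-0.97 to 0.64), SLC7A2 (-0.27 to 0.69) and SLC7A8 (-0.90 to 0.10). The cause was not tested.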
